A study of Mus musculus with 6 samples.

Results

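Transcript levels of 42 genes of the tricarboxylic acid (TCA) cycle, of pyruvate entry and of the itaconate branch were followed in primary bone-marrow-derived macrophages (BMDMs). The genes were chosen by name, as a list of enzymes, regulators and carriers around the cycle, and all 42 were found by their symbols among the 54532 genes listed. RNA-seq was available for 6 libraries, 2 in each of 3 groups. Untreated BMDMs received neither agent, the LPS group received LPS (100 ng/ml) for 2 h, and the Met + LPS group received metformin (5 mM) for 6 h and then LPS (100 ng/ml) for 2 h. All groups were BMDMs of C57BL/6 mice grown in L929-conditioned medium. No group was given metformin alone, so an effect of metformin without LPS cannot be read from these libraries. Per the paper's methods the cells were plated as duplicates, and whether these came from separate mice is not given in the sources used here, so that p-values measure only the spread between libraries, which may be technical.

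In the TCA cycle, acetyl-CoA condenses with oxaloacetate to citrate, and the cycle returns to oxaloacetate through isocitrate, 2-oxoglutarate, succinate, fumarate and malate while it feeds electrons to the respiratory chain. Pyruvate enters the mitochondrion through the carrier MPC and is turned to acetyl-CoA by the pyruvate dehydrogenase complex, which PDK kinases switch off and PDP phosphatases switch on. In macrophages that sense LPS, cis-aconitate is drawn off the cycle by the enzyme ACOD1 to make itaconate, an inhibitor of succinate dehydrogenase, and citrate can leave the mitochondrion to supply the cytosol with acetyl-CoA. LPS, from the surface of Gram-negative bacteria, is sensed by macrophages through TLR4, and metformin is a biguanide drug known to inhibit respiratory complex I.

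The unit is TPM, reads per gene length set to a common sum across libraries, and the reads recovered from them were 25457016 to 30762754 per library. The macrophage markers (8 of 8, Adgre1, Csf1r, Cd68, Itgam, Lyz2, Fcgr1, Mertk and Cd14) were at or above 1 TPM in all 6 libraries, with a summed level of 44620 to 46600 TPM in untreated, 37410 to 37900 in LPS and 30880 to 30950 in Met + LPS libraries. Of the neutrophil markers 4 of 5 were at or above 1 TPM in all libraries, and their sum was 27.2 to 30.9 TPM, 24.4 to 25.8 TPM and 40.2 to 42.04 TPM in the same order. The sums of the T cell, B cell, dendritic cell, fibroblast and erythroid markers were at most 2.13 TPM in any library, with Cd3g and Hbb-bt among those at 0 in all of them. The part of these marker levels in the results was not tested. In bulk libraries, fewer cells of a type and less RNA per cell cannot be told apart.

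Acod1 was the member with the widest range. Acod1 (ENSMUSG00000022126, chr14:103046977-103056573, plus strand, GRCm38) encodes the enzyme that makes itaconate. Its level was 5.62 and 7.03 TPM in the untreated libraries, 3902 and 3946 TPM in the LPS libraries and 4155 and 4210 TPM in the Met + LPS libraries. The untreated libraries lay far below the other 4, and Acod1 went from rank 40 of the 42 members in untreated BMDMs to rank 1 after LPS. The other 41 members together summed to 3775 and 3800 TPM in untreated, 2884 and 2802 TPM in LPS, and 2551 and 2552 TPM in Met + LPS libraries. Acod1 thus made up 0.149% and 0.185% of the members' TPM in untreated libraries, 57.5% and 58.5% in LPS libraries, and 62.0% and 62.3% in Met + LPS libraries.

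**Figure D1:**
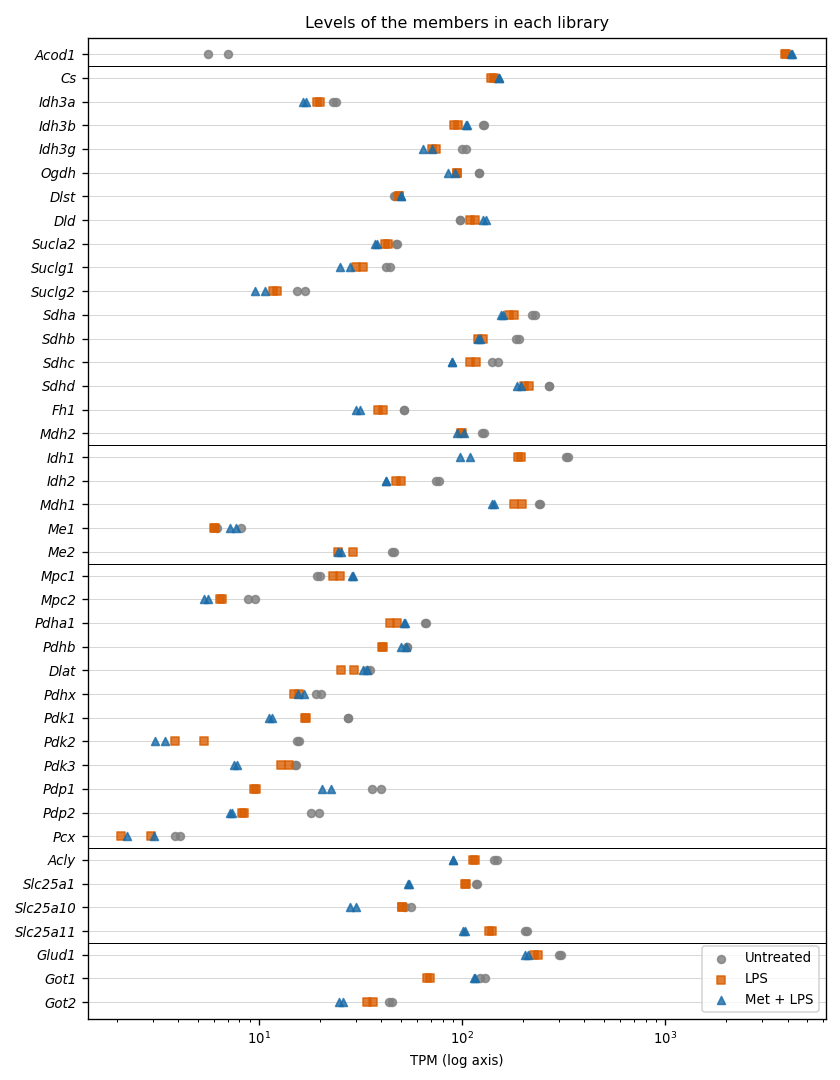
Level of the 41 members with at least 1 TPM in at least 2 libraries, in TPM on a log axis, with 1 symbol for each of the 6 libraries (circles untreated, squares LPS, triangles Met + LPS) and lines between the roles. Acod1 spans from 5.62 to 4210 TPM, the widest range of any member; Pdk4, with at most 1 read in a library, is left out.

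Promoter windows were looked up in RefSeq (GRCm38.p6) for all members, and 38 of 42 had one. Each window runs from 250 bases before a start site to 50 after it. The stretch of 250 bases before the start is shown for Acod1, which rose most after LPS, for Got1, which was lower with LPS alone than in both other groups, and for Slc25a1, whose level was lowest with metformin. Capitals mark the motifs found, which are TATAAA in Acod1, a kappaB motif and the C/EBP-ATF element TGATGNAA (on the opposite strand) in Got1, and the E-box CACGTG and a kappaB motif in Slc25a1.
Acod1 (chr14:103046762-103047061, plus strand): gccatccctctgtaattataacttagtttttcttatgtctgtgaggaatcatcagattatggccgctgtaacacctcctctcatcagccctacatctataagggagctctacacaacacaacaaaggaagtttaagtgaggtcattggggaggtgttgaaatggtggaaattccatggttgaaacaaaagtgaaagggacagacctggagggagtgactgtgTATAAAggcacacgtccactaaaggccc
Got1 (chr19:43524556-43524855, minus strand): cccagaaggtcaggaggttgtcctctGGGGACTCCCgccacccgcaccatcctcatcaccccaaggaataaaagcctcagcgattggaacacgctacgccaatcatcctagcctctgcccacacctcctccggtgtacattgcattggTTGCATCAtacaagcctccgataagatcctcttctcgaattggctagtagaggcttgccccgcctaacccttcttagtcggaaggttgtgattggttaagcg
Slc25a1 (chr16:17928170-17928469, minus strand): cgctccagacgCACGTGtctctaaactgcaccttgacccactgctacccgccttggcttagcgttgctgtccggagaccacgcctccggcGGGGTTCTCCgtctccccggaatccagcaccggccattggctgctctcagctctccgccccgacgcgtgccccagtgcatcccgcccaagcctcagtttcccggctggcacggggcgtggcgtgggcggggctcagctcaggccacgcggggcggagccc
TATAAA, searched on both strands, begins at base -28 from the RefSeq start site of Acod1. The annotated gene start of Acod1 given above, 103046977, lies in the same window, before this motif. TATAAA was found in 2 of the 38 members with a window, Acod1 and Got2, against 15.7% of the 27025 genes with a window. The kappaB motif was found in 11 members (28.9%) against 9.55% of all genes, but not in the window of Acod1. A gene counted where any of its windows matched, and the base composition of the members' windows was not matched to that of all genes. TGATGNAA was found in 1 member, Got1, against 4.51% of all genes, and CACGTG in 5 members (Ogdh, Pdk2, Pdp2, Pcx and Slc25a1) against 8.09%. A match of letters is a description and not a binding site.

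The comparison of LPS with untreated BMDMs addresses how the early LPS response moved these genes. Acod1 rose by 9.07 ± 0.08 on the log2(TPM + 1) scale (SE, limma, adjusted p = 2.8e-09), which is 539-fold on that scale. The members called lower whichever way the libraries were scaled were Pdp1, Pdp2 and Pdk2, which switch pyruvate dehydrogenase on or off, and the cytosolic enzymes Got1 and Idh1. Of the 41 members tested, 35 (85.4%) passed an adjusted p-value of 0.01, against 76.3% of all 12755 genes tested. Among these, 3 were higher (Acod1, Dld and Mpc1) and 32 lower, against 16.2% and 60.1% of all genes.

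The direction of most of these calls depended on the scaling. The median tested gene was lower in LPS by -0.48 on the log2 scale, and the median member by -0.37. When the libraries were rescaled by the median ratio over genes, which brought the median gene to -0.01, the median member was at 0.15 and 26 members changed sign. After rescaling, 17 members were called, 12 higher and 5 lower, against 58.3% of all genes (30.6% higher and 27.6% lower). Only 8 members were called in the same direction in both scalings, against 43.8% of all genes, and these were Acod1, Dld and Mpc1 (higher) and Idh1, Pdp1, Pdp2, Pdk2 and Got1 (lower). Another 5, Sucla2, Idh3a, Acly, Sdha and Slc25a1, were called lower as deposited and higher after rescaling, against 4.66% of all genes. At the fold cut-off of 2 on the log2 scale, Acod1 was the 1 member called, against 6.08% of all genes.

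**Figure D2:**
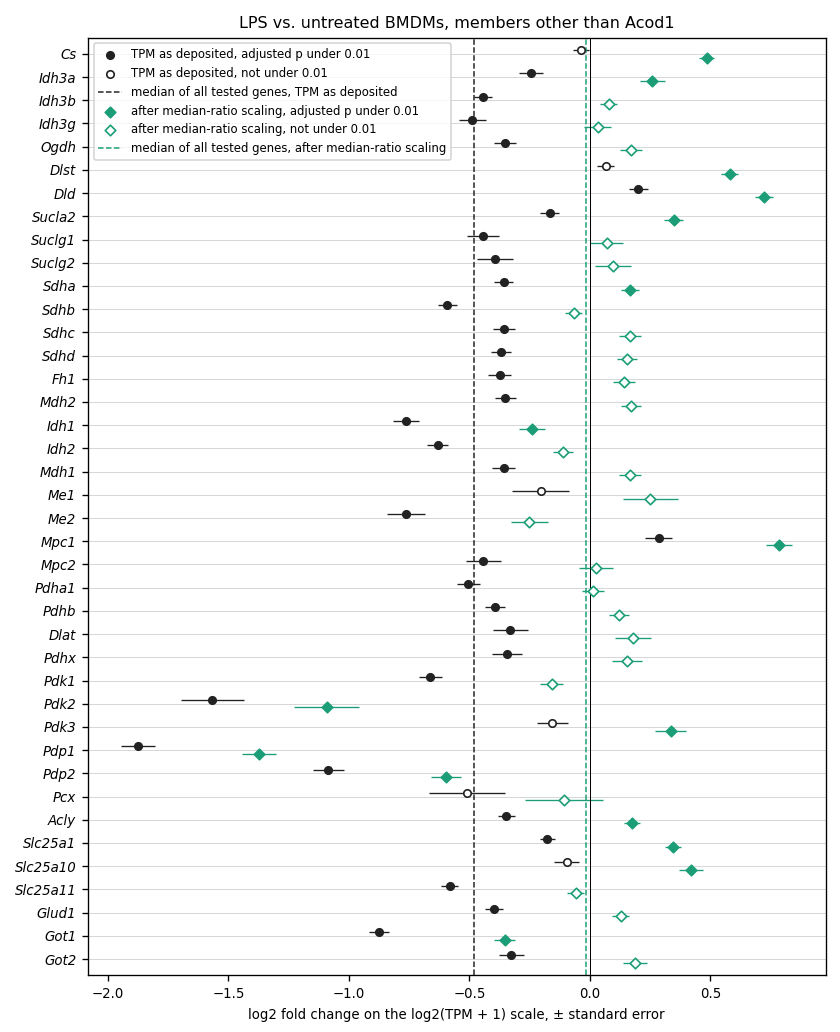
Log2 fold change of LPS vs. untreated BMDMs for 40 members (Acod1, at 9.07, is off this scale), with the standard error, as deposited (circles) and after median-ratio scaling (diamonds). Filled symbols have an adjusted p-value under 0.01, and dashed lines mark the median of all tested genes at -0.48 and -0.01; Pdp1, Pdk2 and Pdp2 lie farthest to the left in both scalings.

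Pdp1, Pdk2 and Pdp2, regulators of pyruvate dehydrogenase, had the largest decreases among the 41 members after LPS. Pdp1 (chr4:11958184-11966452, minus strand), the catalytic subunit of a phosphatase that activates the complex, was at 39.7 and 35.8 TPM in untreated and at 9.62 and 9.49 TPM in LPS libraries. Pdp1 fell by 1.87 ± 0.07 on the log2 scale (limma, adjusted p = 1.1e-06), and by 1.37 after rescaling. Pdp2 (chr8:104591451-104599026, plus strand), its second isoform, was at 18.1 and 19.7 TPM and then at 8.47 and 8.26 TPM, a difference of -1.09 ± 0.06 (adjusted p = 8.3e-06) and of -0.60 after rescaling. The libraries of the groups did not overlap for either gene. This does not set them apart, since 37 tested members lay lower and 4 higher without overlap in this comparison. The share of all genes for such separation is not reported here.

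Among the kinases, Pdk2 (chr11:95026258-95041354, minus strand) fell from 15.7 and 15.3 TPM to 3.86 and 5.37 TPM, a log2 difference of -1.57 ± 0.13 (limma, adjusted p = 4.0e-05) and of -1.09 after rescaling. Pdk1 was at 27.4 and 27.3 TPM in untreated and 16.8 and 17.1 TPM in LPS libraries, and its difference of -0.66 as deposited was called while that of -0.16 after rescaling was not (adjusted p = 0.0243). Pdk3 was at 15.0 and 15.2 TPM and then 12.9 and 14.1 TPM, which was not called as deposited (adjusted p = 0.0554) and was called higher after rescaling, at 0.34. Pdk4, a kinase known from fasting muscle and liver, had 1 read in 1 LPS library and 0 reads in the other 5, where 3 reads would correspond to at most 0.119 TPM, and it was not tested.

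Idh1 (chr1:65158616-65186500, minus strand) encodes the cytosolic enzyme that makes 2-oxoglutarate and NADPH, and it was the most abundant member in untreated BMDMs. It fell from 324 and 330.1 TPM to 196 and 189 TPM, by 0.76 ± 0.05 on the log2 scale (limma, adjusted p = 1.8e-05) and by 0.24 after rescaling (adjusted p = 0.00623). Got1 (chr19:43499752-43524605, minus strand), the cytosolic aspartate aminotransferase, fell from 130.0 and 122.0 TPM to 67.3 and 69.1 TPM, by 0.88 ± 0.04 (adjusted p = 3.2e-06) and by 0.35 after rescaling. The LPS libraries of both genes lay below all untreated libraries, as they did for 37 of the 41 tested members. Of the 5 members Idh1, Idh2, Mdh1, Me1 and Me2, 4 were called lower as deposited (60.1% of all genes). Idh1 was the 1 still called lower after rescaling (27.6% of all genes). Me2, Idh2 and Mdh1 differed by -0.76, -0.63 and -0.36 as deposited and by -0.25, -0.11 and 0.17 after rescaling. Me1, Slc25a10 and Pcx did not pass the test as deposited (limma, adjusted p = 0.146, 0.124 and 0.0206), and of these Slc25a10 was called higher after rescaling, at 0.42.

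Dld and Mpc1 were the other members called higher in both scalings. Dld, the lipoamide dehydrogenase that pyruvate and 2-oxoglutarate dehydrogenase share, was at 97.4 and 97.3 TPM in untreated and 116 and 109 TPM in LPS libraries, a log2 difference of 0.20 ± 0.04 (limma, adjusted p = 0.00286) and of 0.72 after rescaling. Mpc1, a subunit of the mitochondrial pyruvate carrier, was at 19.9 and 19.2 TPM and then 25.1 and 23.0 TPM, a difference of 0.29 ± 0.05 (adjusted p = 0.0024) and of 0.79 after rescaling. Both calls were lost as deposited when untreated replicate 1, untreated replicate 2 or LPS replicate 1 was left out, with adjusted p-values up to 0.0222 for Dld and 0.0240 for Mpc1, so that Acod1 was then the 1 member called higher. Mpc1 is uncertain for another reason, since 69.2% of its 31-mers were its own and 23.1% of its exon bases overlap the opposite-strand gene 4930506C21Rik, which was at 0.530 to 1.595 TPM.

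Most enzymes of the cycle itself were lower as deposited and not after rescaling. Of 16 cycle enzymes, 13 were called lower as deposited and 1, Dld, higher, against 60.1% and 16.2% of all tested genes, while 6 were called higher and 0 lower after rescaling, against 30.6% and 27.6%. Their log2 differences as deposited lay between -0.59 (Sdhb, a subunit of succinate dehydrogenase) and 0.20 (Dld), with a median of -0.36, where the quartiles of all tested genes were -0.89 and -0.04. Citrate synthase, Cs, was at 144 and 146 TPM in untreated and 143 and 139 TPM in LPS libraries, a difference of -0.04 (limma, adjusted p = 0.319) and of 0.49 after rescaling. Dlst, the core of 2-oxoglutarate dehydrogenase, was at 46.2 and 46.7 TPM and then 48.7 and 48.7 TPM (0.07, adjusted p = 0.123, and 0.58 after rescaling). The calls of 9 lower members were lost as deposited when some 1 library was left out. Idh3a and Sucla2 lost theirs without any of the 4 libraries (adjusted p up to 0.0331 and 0.0400). Suclg2 and Slc25a1 lost theirs without untreated replicate 2 or LPS replicate 2, Suclg2 also without LPS replicate 1 and Slc25a1 also without untreated replicate 1 (adjusted p up to 0.0256 and 0.0166). Dlat lost its call without either untreated replicate or LPS replicate 1, and Pdhx without untreated replicate 1 or LPS replicate 1 (adjusted p up to 0.0422 and 0.0203). Suclg1 and Mpc2 lost theirs without untreated replicate 2 (adjusted p = 0.0122 and 0.0128), and Got2 without untreated replicate 1 (adjusted p = 0.0132).

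The comparison of Met + LPS with LPS addresses what metformin pretreatment changed in stimulated BMDMs. The carriers that take citrate and other acids out of the mitochondrial matrix and Acly, the cytosolic enzyme that splits citrate, were all lower with metformin, as were Idh1 and the kinases Pdk1 and Pdk3, whereas the phosphatase Pdp1 and the aminotransferase Got1 were higher. Of the 41 members, 16 were called (5 higher and 11 lower), against 32.6% of all tested genes (14.5% higher and 18.0% lower). All 16 were called in the same direction after rescaling, against 31.9% of all genes. The median member differed by -0.15 on the log2 scale, and the median tested gene by -0.03. At the fold cut-off of 0.7 on the log2 scale, 6 members were called, against 8.28% of all genes. These were Pdp1 and Got1, higher (4.19% of all genes), and Slc25a1, Idh1, Slc25a10 and Pdk3, lower (4.09% of all genes). This comparison shares its LPS libraries with the comparison above, so the values of the members in both are given side by side and not set in relation.

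**Figure D3:**
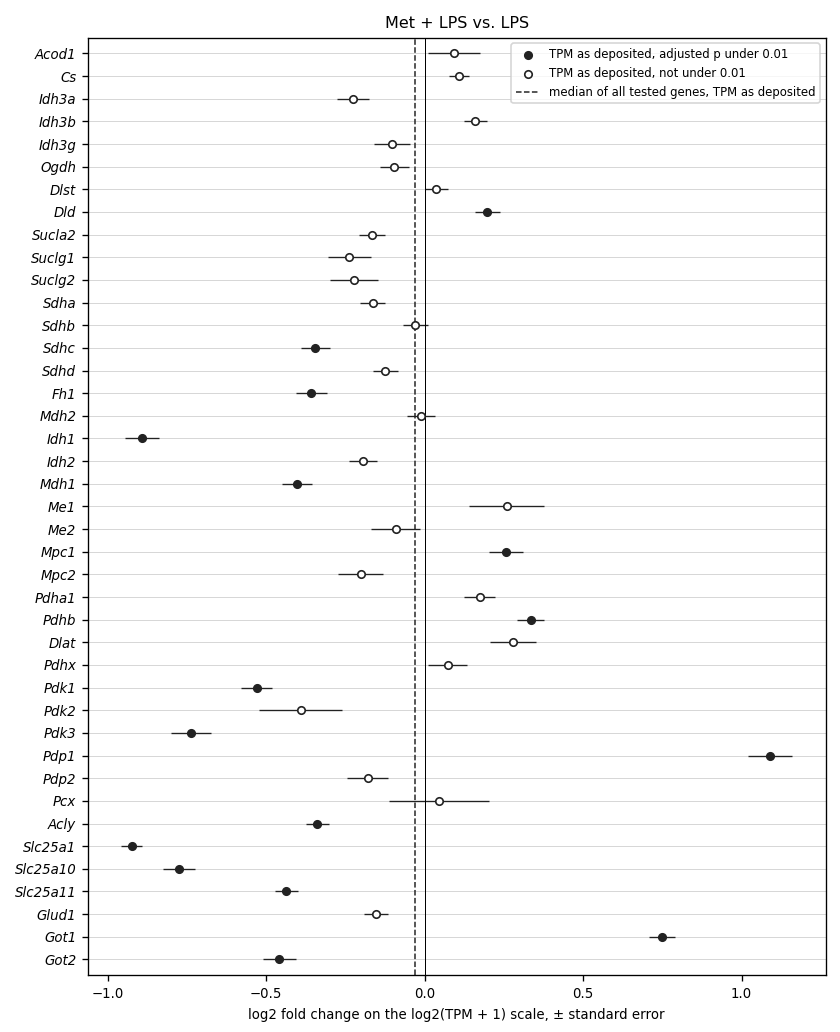
Log2 fold change of Met + LPS vs. LPS for the 41 tested members, as deposited, with the standard error. Filled symbols have an adjusted p-value under 0.01 and the dashed line marks the median of all tested genes at -0.03; Pdp1 (1.09) and Got1 (0.75) lie farthest to the right and Slc25a1 (-0.92) and Idh1 (-0.89) farthest to the left.

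All 4 members for citrate and dicarboxylate export fell. Slc25a1 (chr16:17925223-17928219, minus strand), the mitochondrial citrate carrier, was at 119 and 117 TPM in untreated, 105 and 104 TPM in LPS, and 54.0 and 54.8 TPM in Met + LPS libraries. It fell by 0.92 ± 0.03 on the log2 scale against LPS (limma, adjusted p = 1.0e-05), which is 0.527 of the LPS level. Slc25a10 (chr11:120491840-120499187, plus strand), the dicarboxylate carrier, was at 52.2 and 55.7 TPM, 50.4 and 50.3 TPM, and 28.0 and 30.0 TPM in the same order, a difference of -0.77 ± 0.05 against LPS (adjusted p = 7.8e-05). In both genes the Met + LPS libraries lay below the other 4.

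Slc25a11, the carrier that exchanges 2-oxoglutarate for malate, was at 210 and 204 TPM in untreated, 141 and 135 TPM in LPS and 103 and 100.4 TPM in Met + LPS libraries, and differed by -0.44 ± 0.04 against LPS (limma, adjusted p = 1.8e-04). Acly, which splits exported citrate to acetyl-CoA and oxaloacetate, was at 143 and 148 TPM, 116 and 113 TPM, and 90.4 and 90.1 TPM, and differed by -0.34 ± 0.04 (adjusted p = 4.5e-04). The summed level of the 4 was 524 and 525 TPM, 412 and 402 TPM, and 275.3 and 275.3 TPM. Within each library, Acly over Cs was 0.998 and 1.02 in untreated, 0.811 and 0.812 in LPS and 0.595 and 0.592 in Met + LPS, so that the groups did not overlap in this ratio, which does not depend on the scaling between libraries.

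Idh1 was at 109 and 97.9 TPM in Met + LPS libraries, below the 196 and 189 TPM with LPS, and fell by 0.89 ± 0.05 on the log2 scale (limma, adjusted p = 5.3e-05). Idh2, its mitochondrial counterpart, was at 41.97 and 42.4 TPM against 49.7 and 47.1 TPM with LPS, which did not pass the test (-0.19, adjusted p = 0.0107). The ratio of Idh1 to Idh2 was 4.38 and 4.29 in untreated, 3.94 and 3.999 in LPS and 2.59 and 2.31 in Met + LPS libraries. Mdh1, the cytosolic malate dehydrogenase, fell by 0.40 ± 0.05 (adjusted p = 7.3e-04), from 196 and 179 TPM to 140 and 143 TPM, and its mitochondrial form Mdh2 was at 99.5 and 98.6 TPM and then at 94.7 and 102 TPM, with overlapping libraries (adjusted p = 0.851).

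**Figure D4:**
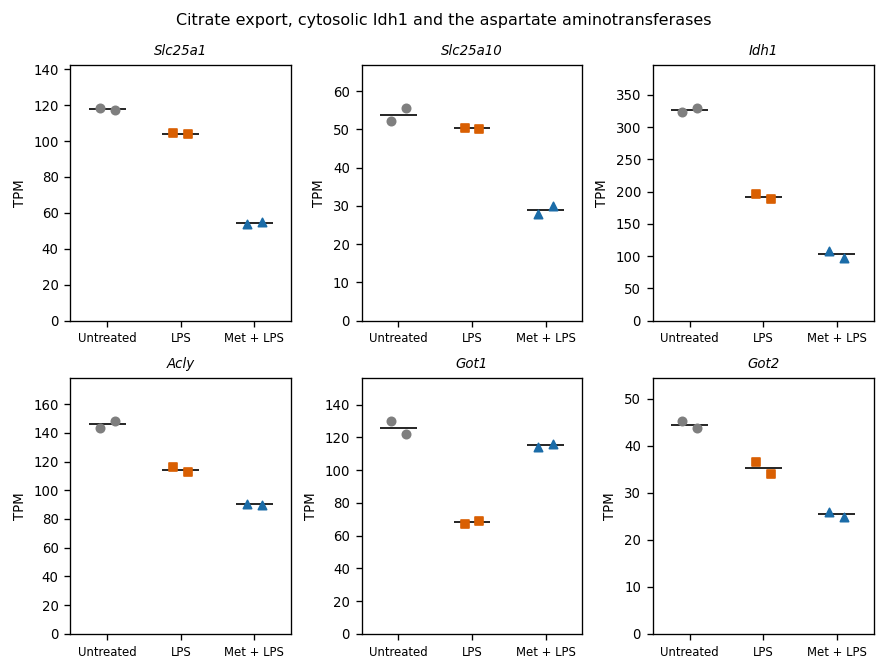
TPM of Slc25a1, Slc25a10, Idh1, Acly, Got1 and Got2 in each library, with a line at the mean of the 2 libraries of a group and axes from 0. Got1 is lowest with LPS alone, at 67.3 and 69.1 TPM, while the other 5 genes are lowest in Met + LPS.

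The aspartate aminotransferases went in opposite directions. Got1 was at 114 and 116 TPM in Met + LPS libraries against 67.3 and 69.1 TPM in LPS libraries, and rose by 0.75 ± 0.04 on the log2 scale (limma, adjusted p = 4.2e-05), 1.68-fold. Got2, the mitochondrial form, was at 45.3 and 43.7 TPM in untreated, 36.5 and 34.1 TPM in LPS and 26.0 and 24.8 TPM in Met + LPS libraries, and differed by -0.46 ± 0.05 against LPS (adjusted p = 6.5e-04). Got1 over Got2 was 2.87 and 2.79, 1.84 and 2.03, and 4.40 and 4.69 in the 3 groups, which did not overlap. Got2 is uncertain, because 69.1% of its 31-mers were its own, although the pseudogene Gm10874 with which it shares most was at no more than 0.0559 TPM. Glud1, the glutamate dehydrogenase that feeds 2-oxoglutarate, was at 235 and 226 TPM with LPS and 211 and 203 TPM with metformin, which did not pass the test (-0.15, adjusted p = 0.0141).

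Among the switches of pyruvate dehydrogenase, the phosphatase Pdp1 was higher with metformin and the kinases Pdk1 and Pdk3 were lower. Pdp1 was at 22.5 and 20.5 TPM in Met + LPS libraries, between the 9.62 and 9.49 TPM of LPS and the 39.7 and 35.8 TPM of untreated libraries. It rose by 1.09 ± 0.07 on the log2 scale against LPS (limma, adjusted p = 6.4e-05), 2.13-fold. Its place below untreated BMDMs depended on the scaling. That difference was -0.78 as deposited (limma, adjusted p = 5.0e-05) and -0.26 after rescaling, which was not called (adjusted p = 0.0134). Pdp2 was at 7.34 and 7.19 TPM against 8.47 and 8.26 TPM with LPS, which did not pass the test (adjusted p = 0.0583). Pdp1 over Pdp2 was 2.20 and 1.82 in untreated, 1.14 and 1.15 in LPS and 3.06 and 2.85 in Met + LPS libraries.

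Pdk1 (chr2:71873224-71903858, plus strand) was at 11.2 and 11.6 TPM in Met + LPS libraries, and fell by 0.53 ± 0.05 on the log2 scale against LPS (limma, adjusted p = 2.6e-04). Pdk3 (chrX:93764607-93832201, minus strand) was at 7.54 and 7.81 TPM against 12.9 and 14.1 TPM with LPS, and fell by 0.74 ± 0.06 (adjusted p = 2.0e-04). Pdk2 was at 3.43 and 3.07 TPM against 3.86 and 5.37 TPM, which did not pass the test (adjusted p = 0.0479). The summed level of the 3 kinases was 58.1 and 57.8 TPM in untreated, 33.5 and 36.5 TPM in LPS and 22.2 and 22.5 TPM in Met + LPS libraries, and that of the 2 phosphatases 57.7 and 55.6 TPM, 18.1 and 17.7 TPM, and 29.8 and 27.7 TPM. Kinases over phosphatases was thus 1.01 and 1.04, 1.85 and 2.06, and 0.744 and 0.814, a ratio chosen after its values were seen, in which the groups did not overlap. It compares transcripts and not the activity of the enzymes. Of its phosphatases, Pdp1 rose from LPS to Met + LPS and Pdp2 did not.

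**Figure D5:**
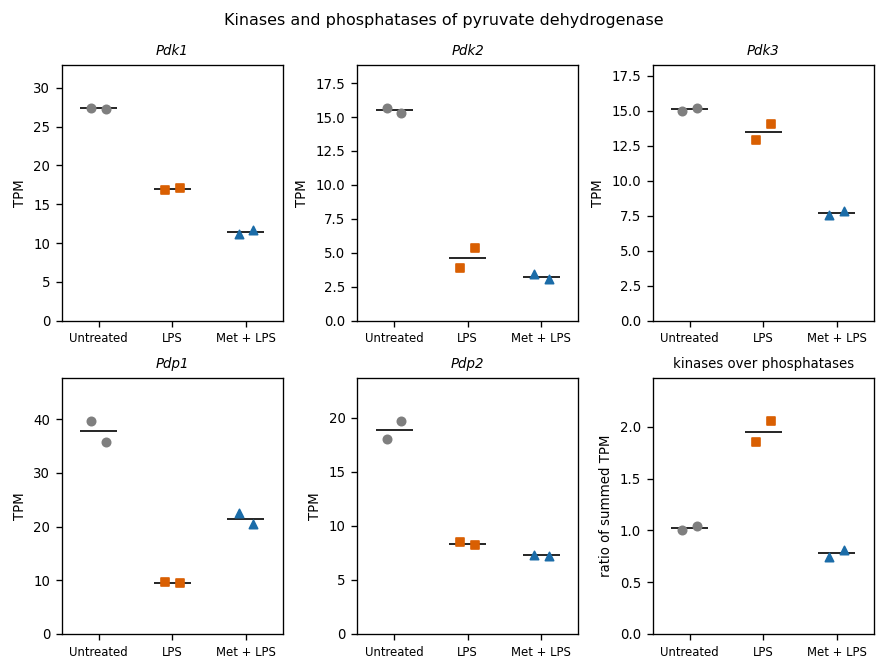
TPM of the kinases Pdk1, Pdk2 and Pdk3 and the phosphatases Pdp1 and Pdp2 in each library, and the ratio of the summed kinases to the summed phosphatases, with a line at the mean of the 2 libraries of a group and axes from 0. The ratio is highest with LPS alone (1.85 and 2.06) and lowest in Met + LPS (0.744 and 0.814).

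Of the pyruvate dehydrogenase complex and its carrier, Pdhb, Dld and Mpc1 were called higher. Pdhb, the beta subunit of the first enzyme, was at 40.7 and 40.2 TPM with LPS and 49.8 and 52.9 TPM with metformin, a difference of 0.34 ± 0.04 on the log2 scale (limma, adjusted p = 0.00107). Dld was at 116 and 109 TPM and then 127 and 130.4 TPM (0.20, adjusted p = 0.00732), and Mpc1 at 25.1 and 23.0 TPM and then 29.0 and 28.8 TPM (0.26, adjusted p = 0.00889). Leaving out 1 library ended the call of Mpc1 in all 4 cases (adjusted p up to 0.0433) and that of Dld in 3, which were LPS replicate 2 and either Met + LPS replicate (adjusted p up to 0.0406), so the number of members called higher was 3 without either Met + LPS replicate. Pdha1, Dlat and Pdhx, the other subunits of the complex, were at 52.5 and 51.7, 34.0 and 32.6, and 15.6 and 16.7 TPM with metformin, and did not pass the test (adjusted p = 0.0241, 0.0199 and 0.373). Mpc1 over Mpc2 was 2.27 and 2.01 in untreated, 3.92 and 3.52 in LPS and 5.17 and 5.36 in Met + LPS libraries. Pdhb and Pdha1 had 82.1% and 84.2% of their 31-mers to themselves and are uncertain to that extent.

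Of the 16 cycle enzymes, 3 passed the test with metformin, against 32.6% of all tested genes, and Idh3b was called higher only after rescaling (adjusted p = 0.0112 as deposited and 0.00674 after rescaling). Fh1, fumarase, was at 40.8 and 38.5 TPM with LPS and 31.5 and 30.0 TPM with metformin, a difference of -0.36 ± 0.05 on the log2 scale (limma, adjusted p = 0.00129). Sdhc, a membrane anchor of succinate dehydrogenase, was at 117 and 109 TPM and then 88.9 and 88.9 TPM (-0.34, adjusted p = 0.00141), and its call was lost without either Met + LPS replicate (adjusted p up to 0.0116). Dld was the enzyme called higher. Across all roles, the 25 members not called lay between -0.39 (Pdk2) and 0.28 (Dlat). The other 3 subunits of succinate dehydrogenase differed by -0.16 (Sdha), -0.03 (Sdhb) and -0.12 (Sdhd), none of which passed the test.

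Acod1 did not pass the test between Met + LPS and LPS. The difference was 0.09 ± 0.08 on the log2 scale (limma, adjusted p = 0.400), although both Met + LPS libraries, at 4155 and 4210 TPM, lay above the LPS libraries, at 3902 and 3946 TPM. Such separation was seen in 12 members that were higher and 24 that were lower in Met + LPS, against 33.8% and 40.0% of all tested genes, and with 2 libraries against 2 an exact permutation test cannot give a p below 0.333. The standard error of Acod1 pools the spread of all 3 groups. The untreated libraries, at 5.62 and 7.03 TPM, differed far more in proportion than the pairs compared here. With voom on recovered reads the difference was also 0.09 (limma, adjusted p = 0.0193), still not under 0.01.

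Against untreated BMDMs, Met + LPS libraries had 34 members called, 3 higher (Acod1, Dld and Mpc1) and 31 lower, against 75.1% of all tested genes (16.3% higher and 58.8% lower). After rescaling 27 were called, 13 higher and 14 lower, against 63.1% of all genes (33.4% and 29.7%). In both scalings 17 were called in the same direction, against 46.0% of all genes, with 14 of them lower (29.7% of all genes). Another 4 (Idh3b, Pdha1, Mdh2 and Sucla2) were lower as deposited and higher after rescaling, against 5.07% of all genes. All 4 export members were among these 14, as were Idh1, Idh2, Mdh1, Me2, Fh1, Got2, Pdk1, Pdk2, Pdk3 and Pdp2. Idh1 differed by -1.65 ± 0.05 on the log2 scale (limma, adjusted p = 6.5e-07; -1.12 after rescaling), Pdk2 by -1.96 ± 0.13 (adjusted p = 1.4e-05; -1.48), Pdk1 by -1.19 ± 0.05 (adjusted p = 1.6e-06; -0.68) and Slc25a1 by -1.10 ± 0.03 (adjusted p = 4.5e-07; -0.57). Got1 and Pdhb were not called as deposited, at -0.13 (adjusted p = 0.027) and -0.06 (adjusted p = 0.241), and were called higher after rescaling, at 0.41 and 0.47. At the fold cut-off of 0.7 on the log2 scale 16 members were called, against 46.1% of all genes. After rescaling 6 were called at this cut-off, where the share of all genes was not computed.

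Among 36 other genes of the pathway, 29 were tested. Against untreated BMDMs, LPS libraries had 3 of these called higher and 21 lower, where 16.2% and 60.1% of all genes were. In both scalings the counts were 3 and 10, against 16.2% and 27.6% of all genes. Met + LPS against LPS libraries had 3 higher and 7 lower, against 14.5% and 18.0%. Aco1, the cytosolic aconitase, was at 84.3 and 88.6 TPM in untreated, 55.5 and 52.1 TPM in LPS, and 50.5 and 54.8 TPM in Met + LPS libraries. It did not pass the test between Met + LPS and LPS (limma, adjusted p = 0.683), and its difference between LPS and untreated BMDMs was -0.67 as deposited (adjusted p = 3.9e-05) and -0.16 after rescaling, which was not called (adjusted p = 0.04). Pck2, which turns mitochondrial oxaloacetate to phosphoenolpyruvate, was at 23.0 and 22.9 TPM in untreated, 5.69 and 6.34 TPM in LPS, and 25.3 and 22.9 TPM in Met + LPS libraries. It fell by 1.77 ± 0.07 on the log2 scale after LPS (limma, adjusted p = 1.6e-06; -1.29 after rescaling) and rose by 1.84 ± 0.07 from LPS to Met + LPS (adjusted p = 1.5e-05; 1.87 after rescaling). Between Met + LPS and untreated BMDMs, Pck2 differed by 0.07 as deposited (limma, adjusted p = 0.426). After rescaling it was called higher there, at 0.58 (adjusted p = 4.2e-04). Lipt2, a transferase in the lipoylation of the dehydrogenase complexes, fell from 7.04 and 7.89 TPM to 0.790 and 0.659 TPM after LPS (-2.29 ± 0.16, adjusted p = 1.9e-05; -1.91 after rescaling). Glul, glutamine synthetase, was at 201 and 202 TPM in untreated, 115 and 118 TPM in LPS and 67.3 and 63.9 TPM in Met + LPS libraries, and differed by -1.603 ± 0.04 between Met + LPS and untreated (adjusted p = 1.9e-07; -1.07 after rescaling).

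Levels of different members are compared per length. In untreated BMDMs the mean level ran from 327 TPM (Idh1) and 304 TPM (Glud1) down to 3.98 TPM (Pcx, pyruvate carboxylase), with Pdk4 at 0. The lengths are those of all exons of a gene together, so that genes with long combined exons, such as Dlst with 9559 bases and Mpc2 with 7344, appear lower than their transcripts are. The catalytic subunit Idh3a of the NAD-dependent isocitrate dehydrogenase was at 24.0 and 23.0 TPM in untreated libraries, and its partners were at 127 and 128 TPM (Idh3b) and 100.3 and 105 TPM (Idh3g). Me1, the cytosolic malic enzyme, was at 6.19 and 8.13 TPM and Me2, a mitochondrial form, at 45.3 and 46.1 TPM in untreated libraries. Suclg2, Me1 and Glud1 also had under 90% of their 31-mers to themselves (79.3%, 63.1% and 89.6%), so that the counting could have split their reads.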

How the data were processed

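Poly-A RNA of 6 BMDM libraries was sequenced as single-end reads. Per the labels and the paper's methods, the authors aligned reads to GRCm38 (mm10) with STAR 2.6.1d, counted them per gene with featureCounts (Subread 1.6.3) and deposited TPM values, without pooling replicates. How TPM was computed is not given in the sources used here. TPM times the summed exon length (GENCODE, GRCm38, 54495 of 54532 genes matched) gave whole reads for 96.4% to 96.7% of the values, within 0.05 read, and these reads gave the depth (limits cover counting error only).

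A gene was tested where 2 or more of the 6 libraries reached 1 TPM (12755 genes). Values of log2(TPM + 1) were fitted for all 6 libraries at once in limma (version 3.58.1, R version 4.3.3), with eBayes allowing a trend of variance on level, 3 residual degrees of freedom and p-values adjusted by Benjamini-Hochberg over these genes. Log2 fold changes on this scale understate the change of low genes. Calls needed an adjusted p-value under 0.01, and counts are also given at the paper's fold cut-offs, with 0.7 used again for Met + LPS vs. untreated. Rescaling used the median ratio over tested genes above 0 in all libraries. Ratios were taken within libraries, with no test. The fit was tested on simulated data with changes placed in the Met + LPS libraries only. The simulation thus does not bear on the scaling between LPS and untreated libraries. Tables were made in Python 3.11.15 with numpy 2.4.6 and pandas 2.3.3, and plots with matplotlib 3.10.9.

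All 42 members are named, and of 36 further pathway genes Aco1 as well as those past an adjusted p-value of 0.01 and a log2 change of 1 in both scalings. The members, lists and tests were chosen with earlier results of these data known. The share of a gene's 31-mers found in no other gene, with a limit of 90%, marks genes whose reads could have been split. Libraries of the same replicate number did not deviate together, and the libraries were fitted without pairing. Values of some listed genes are not reported here.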

Additional observations from a re-analysis of the deposited data

How the results depend on the processing

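In 13 alternatives, the calls of 6 members in LPS vs. untreated (Acod1, Idh1, Pdk2, Pdp1, Pdp2 and Got1) and of 13 of 16 members in Met + LPS vs. LPS kept their direction and their side of the threshold, the exceptions there being Dld, Mpc1 and Sdhc. Median-ratio scaling gave 17 members called in LPS vs. untreated (12 higher, 5 lower) and, in Met + LPS vs. untreated, 13 higher, 14 lower and 6 at the fold cut-off. It turned the direction of 26 members in LPS vs. untreated, to 0.49 (Cs), 0.26 (Idh3a), 0.079 (Idh3b), 0.033 (Idh3g), 0.17 (Ogdh), 0.35 (Sucla2), 0.070 (Suclg1), 0.10 (Suclg2), 0.17 (Sdha), 0.17 (Sdhc), 0.16 (Sdhd), 0.14 (Fh1), 0.17 (Mdh2), 0.17 (Mdh1), 0.25 (Me1), 0.024 (Mpc2), 0.012 (Pdha1), 0.12 (Pdhb), 0.18 (Dlat), 0.15 (Pdhx), 0.34 (Pdk3), 0.18 (Acly), 0.35 (Slc25a1), 0.42 (Slc25a10), 0.13 (Glud1) and 0.19 (Got2), of Mdh2 in Met + LPS vs. LPS, to 0.0025, and of 12 members in Met + LPS vs. untreated, to 0.47 (Pdhb), 0.41 (Got1), 0.47 (Dlat), 0.25 (Idh3b), 0.24 (Pdhx), 0.20 (Pdha1), 0.20 (Sucla2), 0.17 (Mdh2), 0.089 (Ogdh), 0.046 (Sdhd), 0.044 (Idh3a) and 0.016 (Sdha). The other alternatives for single members were run for 13 members in Met + LPS vs. untreated. Rescaling moved the median gene from -0.48 to -0.01 in LPS vs. untreated and from -0.48 to 0.0005 in Met + LPS vs. untreated. In Met + LPS vs. LPS it moved the median gene from -0.03 to -0.02. Which scaling is closer to the RNA content of the cells was not tested. In Met + LPS vs. LPS, the number called higher was 3 with no filter, with the compared groups only and without a trend, and 8 with voom on recovered reads, and an adjusted p-value of 0.05 gave 29 members, 9 higher and 20 lower. The cause of the changes with the filter, the groups fitted, the trend and voom was not tested. Shares of all genes were not computed for the counts of the alternatives, except for calls after median-ratio scaling without the fold cut-off. Leaving out 1 library gave 1 to 3 members higher in LPS vs. untreated and 3 to 4 in Met + LPS vs. LPS, where it moved uncalled members across 0, with ranges of -0.067 to 0.0084 (Sdhb), -0.064 to 0.041 (Mdh2), -0.21 to 0.027 (Me2) and -0.13 to 0.22 (Pcx).

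Libraries of the same replicate number showed no shared deviation (correlations of the replicate differences -0.004, 0.028 and 0.006). These values cannot tell whether the libraries were prepared as sets. With the replicate number as a block 34, 17 and 34 members were called in the 3 comparisons, for which no share of all genes was computed. With 2 libraries a group and 3 residual degrees of freedom, the precision is limited, and at most 1 read in a library leaves Pdk4 untested.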

Other observations

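The other genes of the lists that met the naming rule were all lower in Met + LPS than in untreated BMDMs. D2hgdh, which oxidises D-2-hydroxyglutarate, was at 11.6 and 11.0 TPM in untreated, 5.46 and 5.86 TPM in LPS and 3.18 and 2.56 TPM in Met + LPS libraries, and differed by -1.68 ± 0.10 between Met + LPS and untreated on the log2 scale (limma, adjusted p = 7.6e-06; -1.21 after rescaling). Pdpr, the regulatory subunit of the pyruvate dehydrogenase phosphatase, was at 27.4 and 28.3 TPM, 9.90 and 9.54 TPM, and 8.97 and 7.53 TPM in the same order (-1.65 ± 0.08, adjusted p = 3.8e-06; -1.14 after rescaling). Lipt2 was at 0.557 and 1.09 TPM in Met + LPS libraries (-2.23 ± 0.16, adjusted p = 2.1e-05). Gpt, an alanine aminotransferase, was at 6.13 and 5.13 TPM in untreated, 2.501 and 2.47 TPM in LPS and 1.44 and 1.31 TPM in Met + LPS libraries (-1.48 ± 0.11, adjusted p = 2.2e-05; -1.07 after rescaling).

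Of the other ratios taken within a library, some separated the groups and some did not. Mdh1 over Mdh2 overlapped between LPS (1.97 and 1.82) and untreated libraries (1.93 and 1.87). Suclg2 over Sucla2 (0.273 and 0.294, then 0.258 and 0.281) and Pdk2 over Pdk1 (0.230 and 0.315, then 0.306 and 0.264) overlapped between LPS and Met + LPS libraries. Me1 over Me2 was 0.137 and 0.176 in untreated, 0.208 and 0.249 in LPS and 0.314 and 0.284 in Met + LPS libraries, where Me1 is uncertain because of its shared sequence. Idh3a over Idh3b was 0.189 and 0.180, 0.202 and 0.219, and 0.161 and 0.158 in the same order, lowest with metformin. Slc25a1 over Cs, chosen after its values were seen, was 0.825 and 0.804, 0.730 and 0.748, and 0.355 and 0.360.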
